A study of Mus musculus with 3 samples.

Results

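Keratins are the intermediate filament proteins of epithelial cells, and 7 of them are described here: the basal keratins Krt5, Krt14 and Krt15 and the simple epithelial keratins Krt7, Krt8, Krt18 and Krt19. They were taken as a fixed list of symbols, all 7 were matched to the identifiers of the count tables, and they are 7 of the 54 keratin genes and of 41214 gene identifiers in those tables. Reads were counted in 3 mouse keratinocyte cultures, with 1 library for each genotype in the labels: wt, ARPC4 ko (Arpc4 belongs to the Arp2/3 complex, the nucleator of branched actin) and Nrf2-EGFP (named for Nrf2, a transcription factor of antioxidant genes, and a green fluorescent protein). All cultures were C57BL/6, immortalised with SV40, growing exponentially, with no treatment listed. The titles share one cell code, the ARPC4 ko title also holds Cre, and the Nrf2-EGFP title holds High. The sources used here do not say whether a culture is a clone, what Nrf2-EGFP carries and which promoter drives it, which part of Arpc4 was deleted or how Cre was delivered.

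Keratin filaments are built from pairs of 1 type I and 1 type II chain, so no chain makes a filament alone. In epidermis the basal layer uses Krt5 (type II) with Krt14 (type I), and Krt15 is a second type I chain of basal cells and of hair follicle stem cells. Krt8 (type II) and Krt18 (type I) are the pair of single-layered epithelia and also of Merkel cells, the touch receptors of skin. Krt7 (type II) and Krt19 (type I) are typical of ducts and glands, and Krt19 also marks hair follicle cells.

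The libraries held 22924294 to 25723959 gene counts, and 11865 genes had at least 1 CPM (counts scaled to library size) in at least 1 library. No value has a replicate, so genotypes could not be tested and p-values are absent. Each range in parentheses is an exact 95% interval of counting error only. A gene passed the size rule ("passed" from here on) where its log2 fold on the scale of CPM + 0.5 was at least 1 in size and the interval of the ratio excluded 1. Arpc4 was at 61.0 CPM in the library labelled ARPC4 ko, against 94.2 in wt and 98.4 in that labelled Nrf2-EGFP. Nfe2l2, which encodes Nrf2, was at 166 CPM in the library labelled Nrf2-EGFP, against 225 in wt and 179 in that labelled ARPC4 ko. Arpc4 RNA was thus lower but still present, and Nfe2l2 RNA was not higher, in the library named for each, so libraries are called by their labels. All 11 keratinocyte markers listed for the check of cell type were above 1 CPM in every library. The 11 include Krt5 and Krt14, which are themselves described here. Trp63, Itga6, Itgb4, Col17a1 and Cdh1 are among the others.

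Of the 7 keratins, 4 were measured well and 3 were close to absent. Krt5 and Krt14 were among the 6 most counted genes of every library. Krt8 and Krt18 were at 188 to 595 CPM, and Krt7, Krt15 and Krt19 had at most 24 counts in any library. In the library labelled ARPC4 ko the basal pair was lower than in wt by more than 2-fold whereas Krt8 and Krt18 stayed within 1.2-fold of wt. In the library labelled Nrf2-EGFP the basal pair was lower and the simple pair higher, none by 2-fold. Of the 4 keratins past the filter, 2 passed as lower in ARPC4 ko against wt, where the share of all genes that passed was 6.76%, with 4.7% higher and 2.06% lower. None passed in Nrf2-EGFP against wt, where 5.61% of all genes did (3.57% higher, 2.05% lower), and none in ARPC4 ko against Nrf2-EGFP, where 2.98% did (2.01% higher, 0.961% lower). In such bulk RNA, fewer cells that make a keratin and less of its RNA per cell cannot be told apart.

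**Figure D1:**
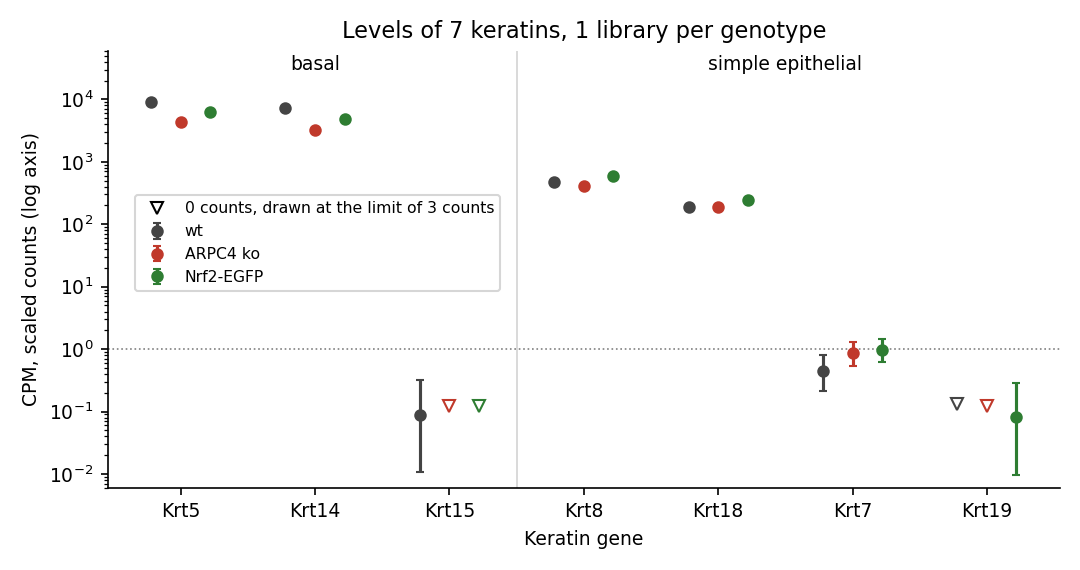
Level of each of the 7 keratins in CPM (log axis) in the 3 libraries, with exact 95% counting intervals where they are wider than the point. Krt5 and Krt14 lie between 3249 and 8997 CPM, Krt8 and Krt18 between 188 and 595 CPM, and the other 3 below 1 CPM, with open triangles for a count of 0.

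Krt5 (ENSMUSG00000061527, chromosome 15, 101707070 to 101712898, minus strand, GRCm38) had 8997 CPM in wt, 4260.3 for ARPC4 ko and 6248 for Nrf2-EGFP, from 202316, 103568 and 155242 counts. The wt library was the highest and the ARPC4 ko library the lowest. Krt5 was 2.11-fold lower (2.1 to 2.13) in ARPC4 ko than in wt and passed, with a log2 fold of -1.08. This call ended when libraries were scaled by total gene counts alone, where the log2 fold was -0.97. Against wt it was 1.44-fold lower (1.43 to 1.45) in Nrf2-EGFP, which did not pass. Krt5 ranked 2 by counts in wt, 4 for ARPC4 ko and 3 for Nrf2-EGFP.

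Krt14 (ENSMUSG00000045545, chromosome 11, 100203162 to 100207548, minus strand), the type I partner of Krt5, had 7378 CPM in wt, 3249 for ARPC4 ko and 4932 for Nrf2-EGFP, from 165907, 78971 and 122539 counts. The order of the libraries was that of Krt5, on another chromosome. Krt14 was 2.27-fold lower (2.25 to 2.29) in ARPC4 ko than in wt and passed under every scaling tried. In Nrf2-EGFP it was 1.5-fold lower (1.49 to 1.51) than in wt and did not pass. Between the other two libraries, Krt5 was 1.47-fold and Krt14 1.52-fold lower (1.5 to 1.53) in ARPC4 ko than in Nrf2-EGFP. Its rank by counts was 3 in wt, 6 for ARPC4 ko and 5 for Nrf2-EGFP.

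Differences of this size were uncommon among abundant genes. Of 2828 genes with at least 100 CPM in ARPC4 ko or wt, 2.58% passed, 1.13% as higher and 1.45% as lower. The same share was 1.94% in Nrf2-EGFP against wt (1.46% higher, 0.486% lower) and 0.505% between ARPC4 ko and Nrf2-EGFP (0.144% higher, 0.361% lower). In a set chosen after its values were seen, the 100 most counted genes of wt, 5 passed as lower in ARPC4 ko and 0 as higher. They were Krt5, Krt14, the stress keratins Krt17 and Krt6a, and Hmgcs1, an enzyme of cholesterol synthesis. Krt5 and Krt17 did not pass with libraries scaled by total gene counts. In Nrf2-EGFP against wt, 0 of those 100 passed as lower and 1, the matrix protein gene Thbs1, as higher.

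**Figure D2:**
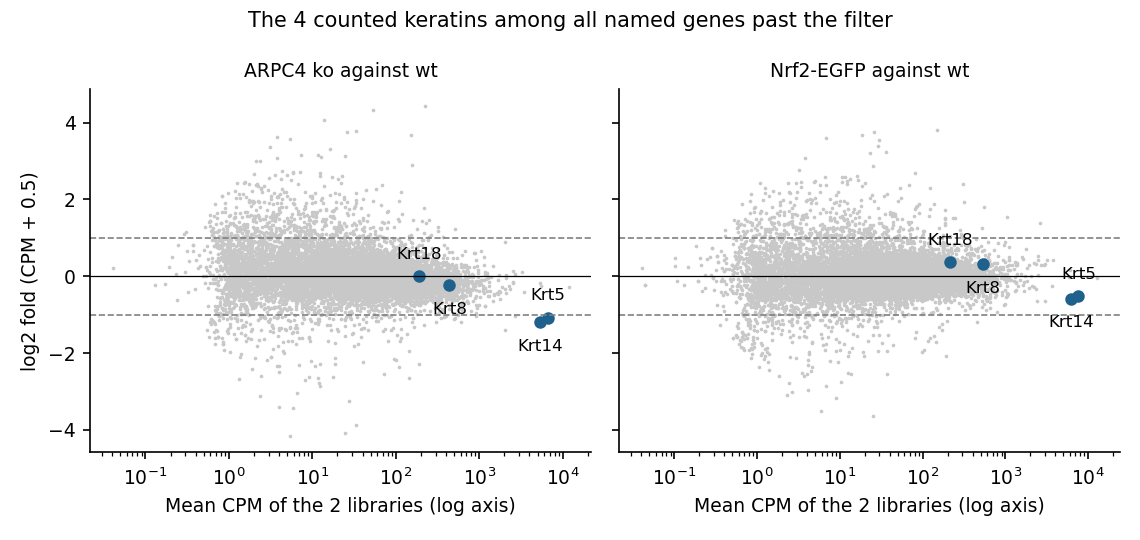
Log2 fold (CPM + 0.5) against wt of each named gene past the filter (grey) by its mean CPM in the pair of libraries (log axis), with the 4 well-measured keratins in blue and dashed lines at 2-fold. Krt5 and Krt14 lie below the lower line in ARPC4 ko and above it in Nrf2-EGFP, and Krt8 and Krt18 lie near 0.

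Krt15 (ENSMUSG00000054146, chromosome 11, 100131758 to 100135928, minus strand), the other basal type I chain, had 2 counts in wt and 0 in both other libraries. The floor of 3 counts set for a count of 0 was 0.123 CPM in ARPC4 ko and 0.121 CPM in Nrf2-EGFP, and the exact interval of a 0 reached 0.152 and 0.148 CPM. No fold is given, since every library was at or under 3 counts. Its ratio to Krt5 could not be compared between libraries. It lies 67.2 kb from Krt14 in the type I cluster. None of its 65-base sequences, the length of a read, occurred in an annotated transcript of another gene.

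Krt8 (ENSMUSG00000049382, chromosome 15, 101996698 to 102004482, minus strand) had 474 CPM in wt, 405 for ARPC4 ko and 595 for Nrf2-EGFP, from 10657, 9855 and 14775 counts. Here Nrf2-EGFP was the highest library and ARPC4 ko again the lowest. Krt8 was 1.17-fold lower (1.14 to 1.2) than wt in ARPC4 ko, yet 1.25-fold higher (1.22 to 1.29) than wt in Nrf2-EGFP, and neither passed. It was 1.47-fold lower (1.43 to 1.5) in ARPC4 ko than in Nrf2-EGFP.

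Krt18 (ENSMUSG00000023043, chromosome 15, 102028180 to 102032027, plus strand), the type I partner of Krt8, had 188 CPM in wt, 188 for ARPC4 ko and 242 for Nrf2-EGFP, from 4234, 4572 and 6008 counts. The wt and ARPC4 ko libraries could not be told apart, with a ratio of 0.999 (0.958 to 1.04). That log2 fold was -0.0016 and turned positive under both other scalings, 0.10 by total gene counts and 0.0063 by size factors. In Nrf2-EGFP Krt18 was 1.28-fold higher (1.23 to 1.34) than in wt, which did not pass, and in ARPC4 ko it was 1.29-fold lower (1.24 to 1.34) than in Nrf2-EGFP.

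Merkel cells also carry Krt8 and Krt18, and their other markers were low. Of 8 listed, 1 passed the filter, the touch channel gene Piezo2, and Krt20, Atoh1 and Rab3c were at 0 in every library. The summed level of the 8 was 4.76 CPM in wt, 10.2 for ARPC4 ko and 18.6 for Nrf2-EGFP, of which Piezo2 made 4.27, 9.79 and 18.2. The lists of fibroblast, melanocyte, immune and endothelial markers had 1, 1, 1 and 3 members past the filter. Their summed levels in wt, ARPC4 ko and Nrf2-EGFP were 1.07, 1.56 and 2.5 CPM for fibroblasts, 3.47, 5.43 and 2.21 for melanocytes, 5.87, 7.2 and 5.67 for immune cells, and 28.4, 54.5 and 63.3 for endothelium, where the receptor gene Flt1 made 24.7, 51.8 and 59.8. The defining markers Col1a2, Col3a1 and Sox10 were at 0 in every library and Ptprc had at most 1 count. The part of Piezo2-, Flt1- or Mitf-expressing cells in the keratin values was not tested.

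Krt7 (ENSMUSG00000023039, chromosome 15, 101411043 to 101430313, plus strand), a type II chain of ducts, had 10 counts in wt, 21 for ARPC4 ko and 24 for Nrf2-EGFP, or 0.445, 0.864 and 0.966 CPM. It missed the filter of 1 CPM in every library. Its ratio to wt was 1.94 (0.876 to 4.62) in ARPC4 ko and 2.17 (1.001 to 5.09) in Nrf2-EGFP, so a difference in ARPC4 ko was not detectable at this depth. Krt19 (ENSMUSG00000020911, chromosome 11, 100140810 to 100148665, minus strand), the smallest keratin and the usual type I partner of Krt7, had 0 counts in wt and ARPC4 ko and 2 in Nrf2-EGFP. Its floor was 0.133 CPM in wt and 0.123 CPM in ARPC4 ko, and the exact intervals reached 0.164 and 0.152 CPM. No fold is given for it, and the Krt19 to Krt7 and Krt19 to Krt8 ratios could not be compared.

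Krt8 and Krt18 are neighbours of opposite orientation on chromosome 15, 23.7 kb apart with none of the counted genes between them, whereas Krt5 lies 284 kb from Krt8 with 11 counted genes in between. Krt8 and Krt18 share a locus with Krt5 but not the size of its difference from wt. Between ARPC4 ko and Nrf2-EGFP, Krt8 and Krt5 were both 1.47-fold lower in ARPC4 ko. The sequences around the start of these 3 keratins, the chromosome 15 members past the filter, are shown. They run 5′ to 3′ on the gene's strand from 250 bases before to 20 bases after the RefSeq transcript start (RefSeq on GRCm38.p6): chr15:101712886-101713155 for Krt5 (minus strand), chr15:102004323-102004592 for Krt8 (minus) and chr15:102027966-102028235 for Krt18 (plus). Capitals mark matches, on either strand, to 6 motifs: TATAAA (a core promoter motif), GGGCGG (the GC box of Sp1), the AP-1 motif TGANTCA, TGACNNNGC (core of the antioxidant response element bound by Nrf2), GCCNNNGGC (AP-2) and CACCC (Klf factors).
Krt5: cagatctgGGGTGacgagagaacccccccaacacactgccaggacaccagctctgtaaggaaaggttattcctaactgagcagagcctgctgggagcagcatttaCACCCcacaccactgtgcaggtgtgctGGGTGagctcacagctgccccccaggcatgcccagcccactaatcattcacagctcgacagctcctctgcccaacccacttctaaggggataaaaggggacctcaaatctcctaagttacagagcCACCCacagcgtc
Krt8: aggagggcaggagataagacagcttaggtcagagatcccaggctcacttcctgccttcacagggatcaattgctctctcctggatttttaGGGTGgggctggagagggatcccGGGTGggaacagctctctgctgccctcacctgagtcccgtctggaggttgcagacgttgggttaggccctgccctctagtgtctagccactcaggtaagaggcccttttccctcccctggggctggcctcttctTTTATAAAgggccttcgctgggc
Krt18: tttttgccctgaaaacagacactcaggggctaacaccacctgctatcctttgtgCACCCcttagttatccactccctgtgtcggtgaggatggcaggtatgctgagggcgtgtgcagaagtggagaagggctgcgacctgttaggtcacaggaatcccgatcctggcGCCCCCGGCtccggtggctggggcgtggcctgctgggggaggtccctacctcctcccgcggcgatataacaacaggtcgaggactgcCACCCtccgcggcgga

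As exact letters, TATAAA was found in the Krt8 window only among these, on both strands as the overlapping run TTTATAAA across the RefSeq start. Of all 32851 promoter windows of that length, 12.9% hold it. Near matches to a motif were not searched and are left unmarked, also in Krt5. The GENCODE gene model of Krt8 starts 140 bases further upstream. GCCNNNGGC, its own reverse complement, was found in the Krt18 window from base 83 to base 75 before the start and in 14.8% of all windows. CACCC was found in all 3 windows and in 54.3% of all. The Sp1 motif GGGCGG was not among the letters of these windows and was in 34.1% of all, and the same held for the AP-1 motif TGANTCA (7.23% of all) and the antioxidant motif TGACNNNGC (11.1% of all). The RefSeq window listed for Krt14 lies inside the annotated gene, 1518 bases downstream of its start, and is not shown. The window of Krt7, a chromosome 15 gene under the filter, is not shown either. Its RefSeq start lies 1360 bases downstream of the GENCODE gene start. Unlike the windows shown, that of Krt7 holds GGGCGG, and it also holds GCCNNNGGC and CACCC.

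Levels of different genes were compared per kilobase of exon. In wt Krt14 had 4197 and Krt5 4095 CPM per kb, Krt8 242 and Krt18 131. In ARPC4 ko Krt5 had 1939, Krt14 1848, Krt8 207 and Krt18 131 CPM per kb. In Nrf2-EGFP the values were 2844 for Krt5, 2805 for Krt14, 304 for Krt8 and 168 for Krt18. The order Krt8, Krt18, Krt7 below the basal pair was the same in the 3 libraries, Krt7 being at most 0.137 CPM per kb. Krt5 and Krt14 were so close that the length used for Krt14 decided which was first in Nrf2-EGFP. Krt15 and Krt19 could not be ordered.

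A ratio of 2 genes within a library does not depend on how libraries are scaled. The ratio of Krt14 to Krt5 per kb was 1.025 (1.018 to 1.031) in wt, 0.953 (0.944 to 0.962) for ARPC4 ko and 0.986 (0.979 to 0.994) for Nrf2-EGFP. The basal pair thus stayed near equal amounts in every library. Relative to wt the ratio was 0.930 (0.919 to 0.940) in ARPC4 ko and 0.963 (0.953 to 0.972) in Nrf2-EGFP, differences beyond counting error but of a few percent. Such steadiness was not particular to the basal partners. Relative to wt, the ratio of the stress keratin Krt17 to Krt5 was 1.03 (1.01 to 1.04) in ARPC4 ko and 0.926 (0.914 to 0.937) in Nrf2-EGFP. The ratio of Krt18 to Krt8 per kb was 0.541 (0.522 to 0.561) in wt, 0.632 (0.610 to 0.655) for ARPC4 ko and 0.554 (0.538 to 0.571) for Nrf2-EGFP. It was 1.17-fold (1.11 to 1.23) that of wt in ARPC4 ko and 1.02-fold (0.977 to 1.07) in Nrf2-EGFP. Krt18 to Krt7 was too thinly counted, with changes of 0.514 (0.216 to 1.14) in ARPC4 ko and 0.591 (0.252 to 1.28) in Nrf2-EGFP.

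Ratios between the simple and the basal keratins, chosen after the values were seen, moved more than those within pairs. Among the type II chains, Krt8 to Krt5 per kb was 0.0591 (0.0580 to 0.0603) in wt, 0.107 (0.105 to 0.109) for ARPC4 ko and 0.107 (0.105 to 0.109) for Nrf2-EGFP. It was 1.81-fold that of wt in both libraries, which share that wt library, and their direct ratio was 0.9998 (0.973 to 1.03). Among the type I chains, Krt18 to Krt14 was 0.0312 (0.0303 to 0.0322) in wt, 0.0708 (0.0687 to 0.0730) for ARPC4 ko and 0.0600 (0.0584 to 0.0616) for Nrf2-EGFP. It was 2.27-fold (2.17 to 2.37) that of wt in ARPC4 ko and 1.92-fold (1.85 to 2.0) in Nrf2-EGFP. In counts, Krt8 and Krt18 made 3.89% (3.83 to 3.95) of the reads of the 7 keratins in wt, 7.32% (7.21 to 7.44) for ARPC4 ko and 6.96% (6.87 to 7.05) for Nrf2-EGFP. Together Krt8 and Krt18 had 662 CPM in wt, 593 in the ARPC4 ko library and 836 in the Nrf2-EGFP library, so their share was higher in ARPC4 ko although their level was not.

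**Figure D3:**
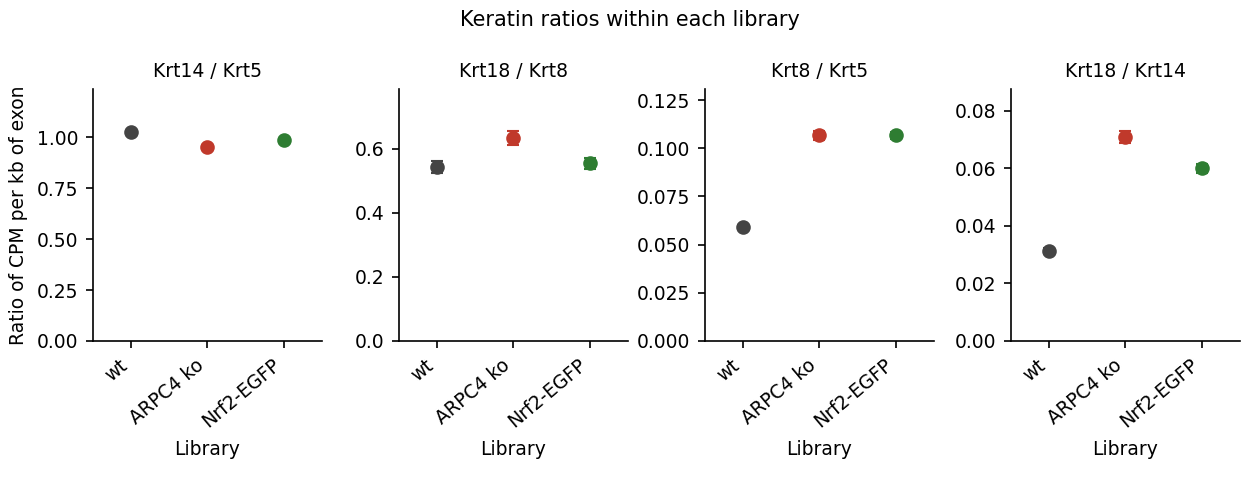
Ratio of CPM per kb of exon for 4 pairs of keratins in each library, with exact 95% counting intervals and each axis starting at 0. The ratios of Krt8 to Krt5 and Krt18 to Krt14 are lowest in wt (0.0591 and 0.0312), while Krt14 to Krt5 lies between 0.953 and 1.02 in the 3 libraries.

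Reads that fit several places were set apart in the deposited tables, which touches these genes unequally. Of the 65-base sequences of Krt8 transcripts, 26.0% also occurred in a transcript of another gene, nearly all in the pseudogene Krt8-ps. For Krt5 the share was 9.61%, mostly with Krt6a, for Krt14 7.86%, mostly with Krt16, for Krt7 0.366%, and for Krt18 and Krt19 it was 0. The Krt5 share includes 3.05% with a microRNA gene and the Krt8 share 2.01% with a noncoding RNA gene. Both overlap exons of the keratin itself on the opposite strand, so these sequences need not fit several places in the genome. They were still counted as shared. Counts of Krt8, Krt5 and Krt14 are therefore uncertain in level. With only unshared sequences as length, Krt18 to Krt8 was 0.406 in wt, 0.474 for ARPC4 ko and 0.415 for Nrf2-EGFP. Non-unique reads on chromosome 15, which holds Krt5 and Krt6a, were 6592 CPM in wt, 3907 for ARPC4 ko and 5245 for Nrf2-EGFP. On chromosome 11, which holds Krt14 and Krt16, they were 6133, 4754 and 5421. Over all chromosomes they were 85670, 70277 and 80675, so non-unique reads as a whole were also lower than in wt. The ratios to wt in ARPC4 ko and Nrf2-EGFP were 0.593 and 0.796 on chromosome 15. They were 0.775 and 0.884 on chromosome 11, and 0.820 and 0.942 over all chromosomes. Which genes these reads came from was not tested.

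The other keratins place these values. Of 54 keratin genes 32 had a count in any library and 12 passed the filter. In ARPC4 ko against wt 7 of the 12 (58.3%) passed as lower and none as higher, among them 5 of the 8 outside the 7 described here (62.5%). With libraries scaled by total gene counts the 7 became 5, and Krt5 and Krt17 were those lost. In Nrf2-EGFP against wt 3 of 12 (25%) passed as lower, all outside the 7 (37.5% of 8). Between ARPC4 ko and Nrf2-EGFP 1 of 12 passed (8.33%, or 12.5% of the 8), the type I keratin Krt42, as lower. The suprabasal keratin Krt1 reached the filter through wt alone, so its place among the lower genes in both comparisons with wt follows from the filter. All keratins together took 2.34% of the gene counts in wt, 1.17% for ARPC4 ko and 1.58% for Nrf2-EGFP, and the 7 described here 1.67%, 0.855% and 1.16%.

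A list of 21 other epidermal keratins had 7 members past the filter. Of the 6 without Krt1, 4 were lower in ARPC4 ko (median log2 fold -1.22, against -0.014 over all genes) and 2 in Nrf2-EGFP (median -0.64, against 0.0049). The stress keratins Krt6a and Krt17, induced in wounds, were 2.63-fold and 2.06-fold lower in ARPC4 ko, and 1.56-fold and 1.56-fold lower in Nrf2-EGFP without passing. Krt6a shares 53.6% of its read-length sequences with other genes, so its level is uncertain. Krt16 was 4.56-fold (4.24 to 4.91) and 3.82-fold (3.57 to 4.09) lower, and Krt6b, with 44.0% shared, had 274 counts in wt, 25 for ARPC4 ko and 31 for Nrf2-EGFP. Krt80, a type II chain, had 62.2 CPM in wt, 58.5 for ARPC4 ko and 86.6 for Nrf2-EGFP, the highest of the 3 as for Krt8. The suprabasal keratins were scarce, with 104, 80 and 80 counts of Krt10 and 30, 1 and 0 of Krt1.

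**Figure D4:**
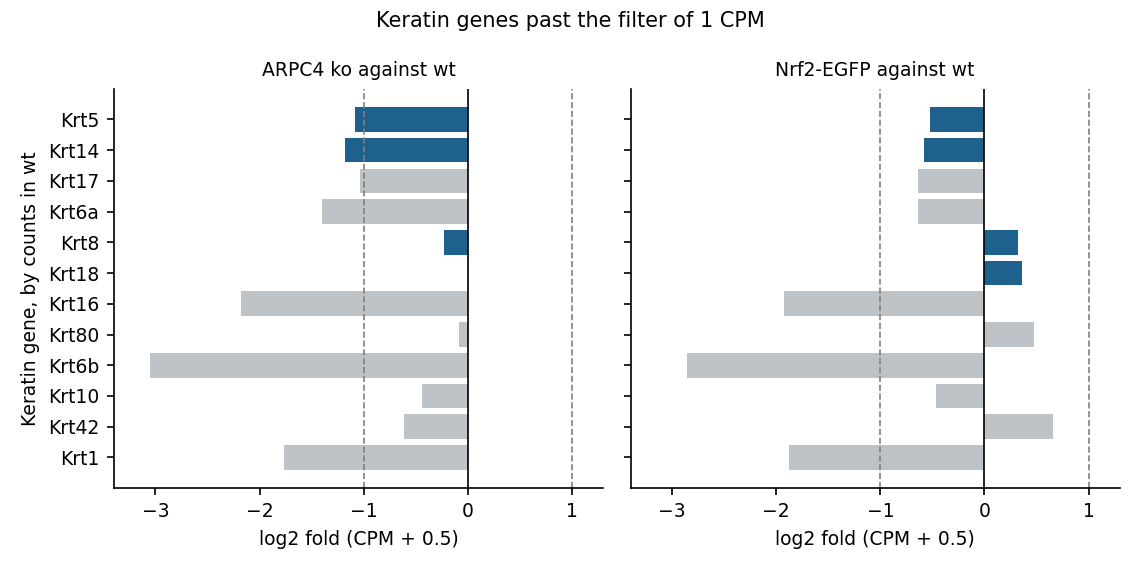
Log2 fold (CPM + 0.5) against wt of the 12 keratin genes past the filter, ordered by counts in wt, with the basal and simple keratins in blue, others in grey and dashed lines at 2-fold. In ARPC4 ko 7 bars pass the lower line, and in Nrf2-EGFP Krt8 and Krt18 point to the right (0.33 and 0.36) while Krt5 and Krt14 point to the left (-0.53 and -0.58).

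Genes that tie keratins to the cell surface were next. Hemidesmosomes anchor Krt5 and Krt14 to the basement membrane, and none of 11 listed members of that anchorage passed in either comparison with wt. Their median log2 fold was -0.24 in ARPC4 ko and 0.29 in Nrf2-EGFP, where 10 of 11 lay above 0. The linker Dst was 1.29-fold lower in ARPC4 ko and 1.28-fold lower in Nrf2-EGFP than in wt. Desmosomes join keratins of neighbouring cells, and 1 of 14 measured members (7.14%) passed in each comparison with wt, as lower. That share was near the 6.76% and 5.61% of all genes that passed in either direction. As lower, 2.06% and 2.05% of all genes passed. In ARPC4 ko the desmosome member that passed was the basal cadherin Dsg3 (2.16-fold, 2.1 to 2.22). Dsg3 had 681 CPM in wt, 316 for ARPC4 ko and 416 for Nrf2-EGFP. In Nrf2-EGFP the member was the cadherin Dsc3 (2.27-fold, 2.21 to 2.34), which was also 1.93-fold lower (1.88 to 1.99) in ARPC4 ko without passing. The medians were -0.53 and -0.29.

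Transcription factors known to act on keratin genes had 27 of 28 members past the filter, with medians of -0.069 and -0.17 against wt. The 7.41% that passed in each comparison with wt was again near the share of all genes in either direction. As lower, 2.06% and 2.05% of all genes passed. None of the factors passed as higher, and 2 passed as lower in each comparison with wt. They were Tfap2c, an AP-2 factor, 2.72-fold (2.21 to 3.36) lower in ARPC4 ko and 2.42-fold (1.99 to 2.96) in Nrf2-EGFP, and Zfp750, a factor of terminal differentiation, 2.47-fold (2.05 to 2.99) and 12.0-fold (8.45 to 17.6) lower. Tfap2a, another AP-2 factor, was 1.39-fold and 1.51-fold lower without passing. Trp63, the master regulator of basal cells and an activator of Krt5 and Krt14, had 299 CPM in wt, 353 for ARPC4 ko and 366 for Nrf2-EGFP. It was 1.18-fold (1.15 to 1.22) and 1.23-fold (1.19 to 1.27) higher than in wt, opposite in direction to Krt5 and Krt14.

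Of 14 proteins that bind or modify keratins none passed in either comparison with wt (medians -0.25 and 0.0074). Tchp, trichoplein, a keratin-binding protein, was 1.56-fold higher (1.35 to 1.81) in ARPC4 ko, and Sfn, the 14-3-3 protein of epithelia, was 1.55-fold lower there and 1.17-fold lower in Nrf2-EGFP. Other intermediate filament genes had 7 of 16 members past the filter, of which 2, Synm and Vim, reached it through ARPC4 ko alone. Nes (nestin) passed as higher in both, by 2.90-fold (2.61 to 3.23) and 2.46-fold (2.21 to 2.74). Vim (vimentin) had 12 counts in wt, 68 for ARPC4 ko and 3 for Nrf2-EGFP, so that its higher value in ARPC4 ko follows from the filter.

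Genes of simple and glandular epithelia, which share their tissues with Krt8 and Krt18, had 13 of 17 members past the filter and none past the size rule against wt. Their median log2 fold was 0.39 in ARPC4 ko and 0.027 in Nrf2-EGFP. The adhesion protein gene Epcam was 1.54-fold (1.5 to 1.58) and 1.62-fold (1.57 to 1.66) higher than in wt, and the claudins Cldn4 (1.56-fold and 1.76-fold), Cldn7 (1.72-fold and 1.26-fold) and Cldn3 (1.79-fold and 1.25-fold) were higher in both. The epithelial splicing factor genes were lower in both, Esrp1 by 1.60-fold and 1.44-fold and Esrp2 by 1.34-fold and 1.13-fold. The transcription factor gene Ehf had ratios to wt of 1.60 for ARPC4 ko and 0.911 for Nrf2-EGFP. In each comparison 8 of the 13 lay above 0. Of 18 suprabasal differentiation genes listed, 16 were matched and 13 passed the filter, but 7 of these (Dsc1, Dsg1a, Dsg1b, Klk7, Krt1, Krtdap and Spink5) did so through wt alone, so that their lower values follow from the filter. Of the other 6, 4 passed as lower and 1, the crosslinking enzyme gene Tgm1, as higher in ARPC4 ko, and 3 passed as lower in Nrf2-EGFP. Sbsn was 4.82-fold (4.29 to 5.44) and 3.5-fold (3.15 to 3.88) lower.

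**Figure D5:**
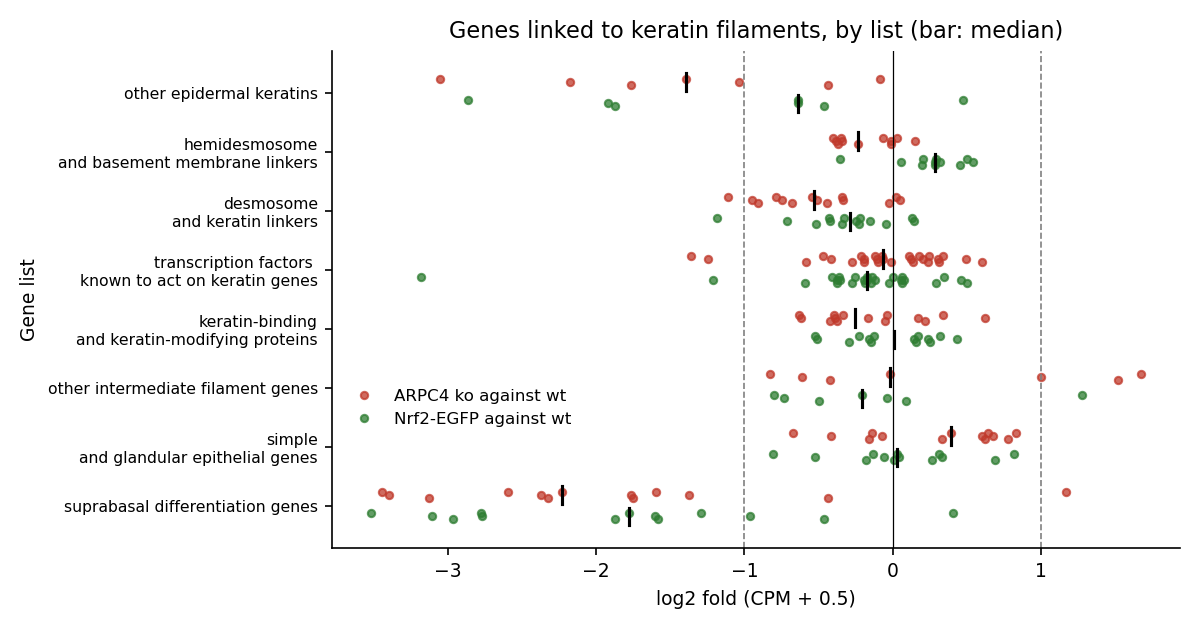
Log2 fold (CPM + 0.5) against wt of each gene past the filter, by list, for ARPC4 ko (red) and Nrf2-EGFP (green), with a black bar at the median and dashed lines at 2-fold. The suprabasal points include 7 genes that reached 1 CPM in wt alone, and the lists of hemidesmosome and simple epithelial genes have none past the size rule.

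The genes whose pair of log2 folds against wt lay nearest to that of each keratin were searched among 8471 named genes with at least 10 CPM in every library. The measure was the Euclidean distance over 2 folds from 3 libraries, which many genes can share. For Krt5 they were Psat1 (0.0086), Cavin3 (0.022) and Cpox (0.042), and Krt14 took place 11. For Krt14 they were Cpox (0.076), Eef2k (0.085) and Psat1 (0.12), with Krt5 in place 5. For Krt8 they were Minpp1 (0.0061), Dusp14 (0.032) and Hyou1 (0.034), with Krt18 in place 348. For Krt18 they were Zdhhc17 (0.012), Prag1 (0.014) and Ddhd1 (0.018), with Krt8 in place 949. By this measure the basal partners lay close together, whereas many genes lay nearer to Krt8 or Krt18 than the partner did. Closeness to Krt5 was not particular to its partner. The stress keratin Krt17 had log2 folds of -1.04 in ARPC4 ko and -0.64 in Nrf2-EGFP, near the -1.08 and -0.53 of Krt5.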

How the data were processed

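Strand-specific polyA libraries were made from total RNA with a TruSeq kit and read as single 65 bp ends, per the labels' protocols. The submitters' processing notes name TopHat2 2.1.0, Bowtie 1.1, HTSeq and mm10, while the sources used here do not give the strand setting or annotation release. The authors deposited unnormalised read counts for each gene. Further rows for non-unique, ambiguous or unassigned reads, 8.22% to 9.08% of entries, were left out of library sizes.

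Counts were scaled with TMM factors (edgeR 4.0.16, R 4.3.3) to CPM. Symbols, coordinates and union exon lengths came from GENCODE M21 on GRCm38 and a gene name table, and 40340 of 41214 identifiers had a symbol. The filter kept genes that reached 1 CPM in any library. The log2 fold used a pseudocount of 0.5 CPM, while folds and ratios are those of scaled counts. Intervals were Clopper-Pearson, conditional on the sum of counts, Poisson for a level, and conditional exact for a change in a ratio. Reads carried no molecular identifiers, so they are not independent molecules. The floor was 3 counts per library. The size rule and its interval were tried on simulated Poisson counts with known folds for each comparison with wt. Scaling, ratios of pairs and spread between cultures were not simulated. DESeq2 1.42.0 size factors, total counts, other pseudocounts, filters and lengths were alternatives.

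The members and lists were chosen with earlier results of these data known. Named genes were the 7 keratins, the targets, every keratin of at least 10 CPM, up to 5 per list with the largest log2 fold against wt at 10 CPM or more, and the 3 nearest patterns. Trp63, Vim, Synm, Krt1, Krt10, Krt42, Esrp1, Esrp2, the suprabasal genes under 10 CPM, the cell type markers and the most counted genes were named outside that rule. Promoters were listed for 5 of the 7, and motifs were chosen after the values were seen. One gene that this rule names is not reported here.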

Additional observations from a re-analysis of the deposited data

How the results depend on the processing

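No paired analysis was possible because each genotype has 1 library, and no replicate could be left out. Scaling by total gene counts took Krt5 in ARPC4 ko against wt below 2-fold (log2 fold -0.97 in place of -1.08). It also took the keratin genes lower in that comparison from 7 to 5, and size factors left 7 (both chosen after the data were seen). No other fold of Krt5, Krt14, Krt8 or Krt18 changed its side of the rule under either scaling or pseudocount. Total counts shifted the median log2 fold of all genes from -0.014 to 0.088 in ARPC4 ko against wt and from -0.017 to 0.11 in ARPC4 ko against Nrf2-EGFP. At a filter of 10 CPM, which tests fewer genes, 253 genes passed as higher and 121 as lower in ARPC4 ko against wt (558 and 244 at 1 CPM), 242 and 92 in Nrf2-EGFP against wt (423 and 243), 52 and 62 in ARPC4 ko against Nrf2-EGFP (239 and 114), where 0 keratins were lower (1 at 1 CPM). With the longest transcript as length, Krt14 to Krt5 was 1.06 in wt, 0.987 for ARPC4 ko and 1.02 for Nrf2-EGFP, where Krt14 took place 1 in place of 2. With unshared 65-base sequences as length, chosen after the data were seen, that ratio was 1.01, 0.943 and 0.976, and Krt18 to Krt8 was 0.406, 0.474 and 0.415. Uniqueness in the genome was not run, since no genome sequence was used here. Depth limits Krt7, Krt15 and Krt19.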
